A study of Mus musculus with 9 samples.

Results

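Skeletal muscle builds its force from sarcomeres, in which actin thin filaments slide along myosin thick filaments between Z-discs, with titin as the elastic filament and troponin as the calcium switch. Around the eye this muscle type forms the extraocular muscles, which attach to the sclera behind the limbus, and the orbicularis of the eyelid, while the sphincter and dilator of the mouse iris and the ciliary muscle are smooth muscle. The 10 genes described here are neonatal skeletal muscle genes: Acta1, Neb, Tnnt3 and Tnnc2 of the thin filament, Myh3, Myh8 and Mylpf of the thick filament, Ttn and Actn2 of the elastic filament and Z-disc, and Ckm, the muscle creatine kinase. They were chosen by symbol through their Ensembl identifiers, and all 10 were found among the 35275 genes of the count table. In these newborn anterior segments they were close to undetected in both genotypes, and none passed the test for a genotype difference.

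RNA was sequenced in bulk from the front of mouse eyes at postnatal day 0, cut free at the limbus and with the lens removed, so that corneal, iris, ciliary and drainage tissue remained. The 6 mutant samples were heterozygous for the Col4a1 G1344D allele (Col4a1+/G1344D), a missense change in a basement membrane collagen, and the 3 wildtype samples were Col4a1+/+. Each sample pooled 4 eyes from 2 mice, and the p-values here speak only of the spread among such pools. Library totals ran between 25995340 and 35306935 counts, and a filter on low counts kept 15825 genes for testing. Markers of the labelled tissue were high: the corneal stroma gene Lum averaged 978 RPKM and the pigment cell gene Pmel 3458 RPKM. CPM is the count scaled by library size, and RPKM is CPM per kilobase of annotated exon, both computed from the deposited counts.

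Since the genes were nearly silent, it matters which reads could have been given to a near-identical gene. Acta1 encodes the actin of skeletal muscle and Acta2 that of smooth muscle, which was abundant here. Their coding sequences were 85.4% identical, and their longest identical run was 29 bases (GENCODE transcripts of GRCm38).

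The myosin heavy chain genes are more alike. Myh8, the perinatal heavy chain gene, and Myh2, an adult fast one, shared 89.2% of their coding bases and an identical run of 155 bases. The start of that run is shown 5′ to 3′ from coding position 2792 to 2951 of Myh8 and 2804 to 2963 of Myh2, with the 2 bases that differ in capitals.

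Myh8: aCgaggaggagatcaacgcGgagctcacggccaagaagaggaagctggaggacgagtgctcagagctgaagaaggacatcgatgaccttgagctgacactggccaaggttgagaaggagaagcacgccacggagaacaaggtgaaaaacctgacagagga

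Myh2: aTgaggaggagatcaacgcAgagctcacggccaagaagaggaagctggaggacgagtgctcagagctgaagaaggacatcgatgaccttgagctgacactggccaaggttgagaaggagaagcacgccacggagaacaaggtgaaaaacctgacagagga

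Of all 50-base words in the annotated Acta1 transcripts, 2.02% also occurred in transcripts of another gene, the cytoplasmic actin gene Actb among them and Acta2 not among the 3 genes that shared most. The share was 12.1% for Myh8, mostly with Myh2, Myh1 and Myh4, and 4.76% for the embryonic heavy chain gene Myh3. It was largest for Tnnc2, at 47.9% with Ube2c, and was 10.9% for Ckm with A930016O22Rik. Both partners are genes on the other strand that overlap the member. Mylpf and Tnnt3 shared 0%. The sources used here give neither the read length nor the treatment of reads with several matches, so the few counts of Myh8 in particular are uncertain.

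The 10 genes together drew 1603 counts over the 9 libraries. They took between 0.000384% and 0.00113% of the counts of a library. Summed over the genes, CPM stood at 11.5, 5.28, 5.05, 3.95, 5.82 and 5.07 in mutants 1 to 6, against 5.49, 7.49 and 4.06 in wildtype 1 to 3. The groups overlapped throughout, mutant 1 was the highest library, and mutant 4 and wildtype 3 were the lowest. In bulk tissue, fewer cells of a type and less RNA per cell cannot be told apart.

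**Figure D1:**
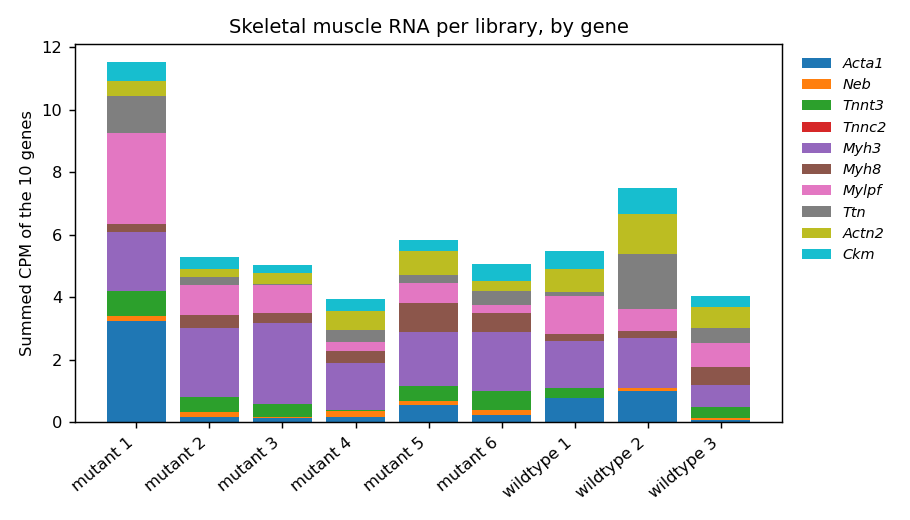
Summed CPM of the 10 skeletal muscle genes (vertical axis, starting at 0) in each library, mutants left and wildtype right, with each gene as a colored segment. Mutant 1 reached 11.5 CPM, while the other libraries of both genotypes lay between 3.95 and 7.49 CPM.

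Per length of exon, all 10 genes averaged under 1 RPKM over the 9 libraries. The fast regulatory light chain gene Mylpf was the highest at 0.907 RPKM, followed by Acta1 at 0.465, Myh3 at 0.286, Tnnt3 at 0.25, Ckm at 0.165, Actn2 at 0.159 and Myh8 at 0.0372 RPKM. Ttn at 0.0047, Neb at 0.0038 and Tnnc2 at 0 RPKM came last. Neighbors in this order overlapped in their ranges over libraries, apart from Myh8, whose lowest library stood at 0.0188 RPKM, and Ttn, whose highest stood at 0.0151 RPKM. Mylpf lay above 44.7% of the protein-coding genes of the table and Neb above 20.8%. By comparison, Acta2 averaged 274 RPKM, which is 588 times the level of Acta1 on this scale.

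**Figure D2:**
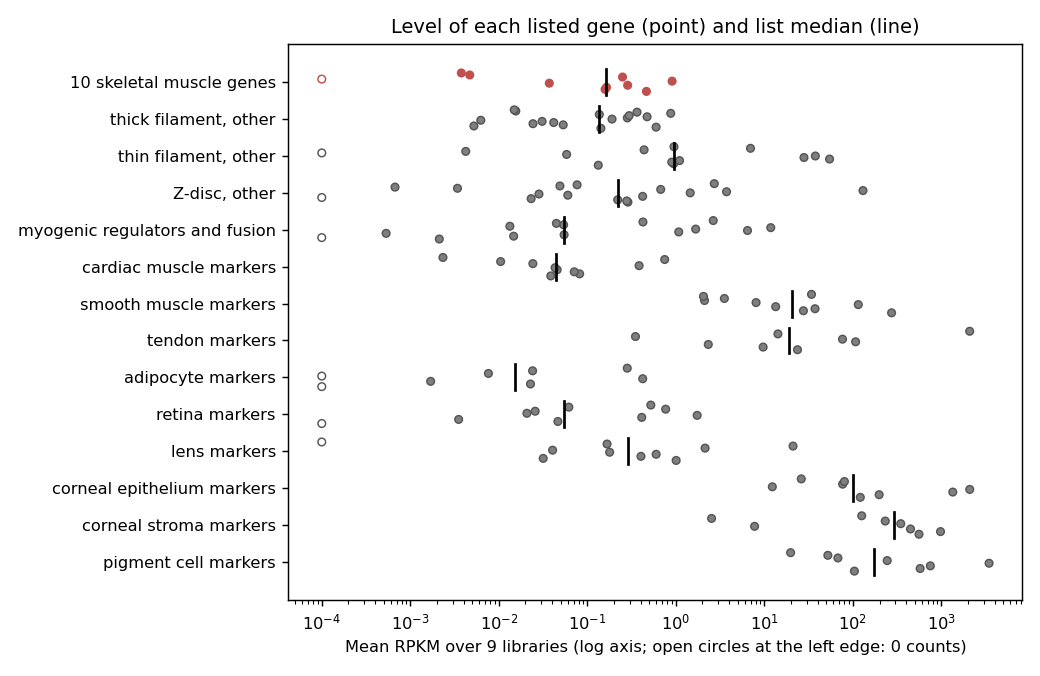
Mean RPKM over the 9 libraries (horizontal log axis) of each listed gene (points), by list, with the list median as a black line and genes at 0 counts as open circles at the left edge. The 10 skeletal muscle genes lie under 1 RPKM with cardiac and adipocyte markers, while smooth muscle, tendon, corneal and pigment cell markers lie mostly far to the right.

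Acta1 (ENSMUSG00000031972, chromosome 8, 123891769 to 123894751 of GRCm38, minus strand) varied widely between libraries. Its lowest, median and highest mutant values were 0.142, 0.219 and 3.25 CPM, against 0.774, 1.012 and 0.0719 CPM in wildtype 1 to 3. The highest value belonged to mutant 1, which held 94 reads, 50.3% of all Acta1 counts in the series. The other mutants held 5 to 20 and the wildtype libraries 21, 27 and 2, so the groups overlapped. The fitted log2 fold change, mutant over wildtype, was 0.29 with a 95% interval of -1.79 to 2.37 (edgeR adjusted p = 0.869), and it became -1.20 without mutant 1 (adjusted p = 0.211).

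Tnnt3 (chromosome 7, 142498836 to 142516009), the fast troponin T gene that anchors troponin to the thin filament, had a lowest, median and highest mutant value of 0.0356, 0.499 and 0.796 CPM. Wildtype 1 to 3 stood at 0.332, 0 and 0.359 CPM. A mutant and a wildtype library were thus at or near 0, and the groups overlapped. The log2 fold change was 1.03 with an interval of -0.65 to 2.72 (edgeR adjusted p = 0.39).

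Neb (chromosome 2, 52136647 to 52378474, minus strand) encodes nebulin, a giant protein that runs along the thin filament. It had between 1 and 5 counts in each mutant library, 23 in all, and 0, 2 and 2 counts in wildtype 1 to 3. It did not pass the filter on low counts. The ratio of summed counts, mutant over wildtype, was 2.5 with an exact 95% interval of 0.853 to 9.94, which covers counting error only.

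Tnnc2 (chromosome 2, 164777161 to 164779967, minus strand), the fast troponin C gene, had 0 counts in all 9 libraries. A count of 0 allows up to 3 counts, or 0.0111 CPM over the 9 libraries together. Of its 800 exon bases, however, 592 lie within exons of Ube2c on the other strand, a gene with 660 to 1575 counts per library, and 208 exon bases lie outside it. The sources used here do not give the strand setting of the counting, and the part of the overlap in the 0 was not tested.

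**Figure D3:**
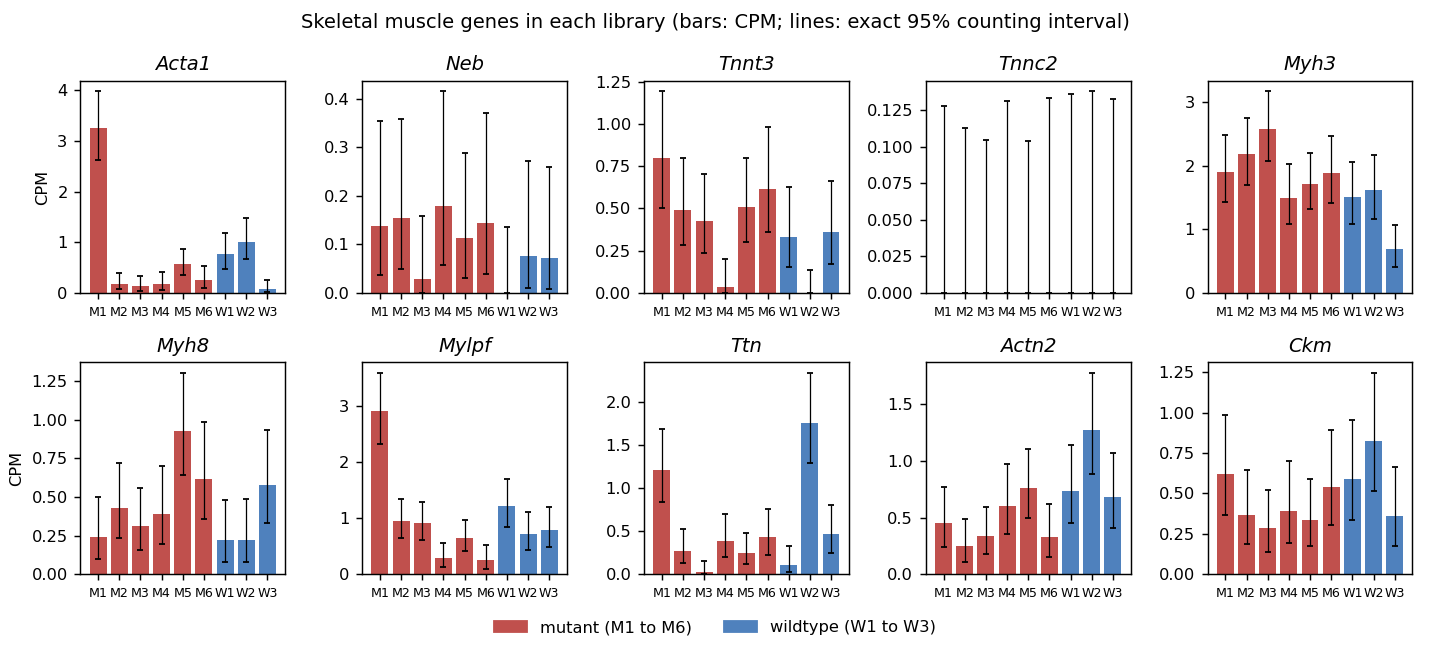
CPM of each of the 10 genes (1 panel each, vertical axes starting at 0 and scaled separately) in mutants 1 to 6 (M1 to M6, red) and wildtype 1 to 3 (W1 to W3, blue), with exact 95% counting intervals as lines. Acta1 and Mylpf are highest in mutant 1, at 3.25 and 2.91 CPM, Ttn is highest in wildtype 2 at 1.76 CPM, and Tnnc2 is at 0 everywhere.

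Myh3 (ENSMUSG00000020908, chromosome 11, 67078300 to 67102291, plus strand), the embryonic myosin heavy chain gene, had the most counts of the 10 genes, 372 in mutants and 103 in wildtype libraries. Its lowest, median and highest mutant values were 1.496, 1.89 and 2.58 CPM, against 1.51, 1.61 and 0.683 CPM in wildtype 1 to 3. The groups touched only at their edges: mutant 4 lay below wildtype 1 and 2, and all other mutants lay above every wildtype library. Myh3 averaged 1.96 ± 0.379 CPM in mutants (SD, n = 6) and 1.27 ± 0.51 CPM in wildtype (SD, n = 3), with a log2 fold change of 0.63 and an interval of -0.04 to 1.31 (edgeR adjusted p = 0.177). It passed the threshold only in limma-voom with quality weights (log2 1.18, adjusted p = 0.0104), among 19 fits counting the one reported.

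Myh8 (chromosome 11, 67277124 to 67308634) takes over from Myh3 around birth in mouse muscle. Its lowest, median and highest mutant values were 0.242, 0.411 and 0.928 CPM, and wildtype 1 to 3 stood at 0.221, 0.225 and 0.575 CPM. Mutants 5 and 6 lay above every wildtype library, while wildtype 3 lay above the other 4 mutants (log2 fold change 0.51, interval -0.72 to 1.74, edgeR adjusted p = 0.575). In each of the 9 libraries Myh8 had fewer counts than Myh3.

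Mylpf (chromosome 7, 127208890 to 127214298), whose product binds the neck of fast myosin, had a lowest, median and highest mutant value of 0.253, 0.777 and 2.91 CPM. Wildtype 1 to 3 stood at 1.22, 0.712 and 0.791 CPM, inside the mutant range. Mutant 1 held 84 reads, 32.4% of the total, and was again the highest library. The log2 fold change was 0.13 with an interval of -1.19 to 1.45 (edgeR adjusted p = 0.909), and -0.55 without mutant 1 (adjusted p = 0.436).

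The other skeletal heavy chain genes were also scarce. Myh2 averaged 0.598 RPKM and Myh1 0.142 RPKM, both genes of adult fast fibers, and the slow gene Myh7 averaged 0.0534 RPKM. The adult fast gene Myh4 averaged 0.00523 RPKM, with 5 counts in mutants and 3 in wildtype. Myh2 thus stood above Myh3 on this scale, although Myh3 is the gene of newly formed fibers. Neither Myh1, Myh2 nor Myh7 passed the test (edgeR adjusted p = 0.749, 0.384 and 0.885).

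Myh13, the heavy chain gene known for its use in adult extraocular muscle, had 0, 0, 0, 2, 8 and 0 counts in mutants 1 to 6, and 11, 3 and 15 counts in wildtype 1 to 3. Mutant 5 lay above wildtype 2, so the groups overlapped, and 4 mutants were at 0. The ratio of summed counts was 0.15 with a 95% counting interval of 0.0651 to 0.316. The gene did not pass the filter, and in the fit with no filter on low counts its adjusted p was 0.142 (edgeR).

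Ttn (ENSMUSG00000051747, chromosome 2, 76703980 to 76982547, minus strand) encodes titin, the molecular spring from Z-disc to M-line, over 116825 annotated exon bases. Its counts were 35, 9, 1, 11, 9 and 12 in mutants 1 to 6, and 3, 47 and 13 in wildtype 1 to 3. Wildtype 2 and mutant 1 were high and mutant 3 and wildtype 1 low, across both groups. The log2 fold change was -0.86 with an interval of -2.52 to 0.80 (edgeR adjusted p = 0.474), and 0.56 without wildtype 2 (adjusted p = 0.732).

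Actn2 (chromosome 13, 12269426 to 12340760, minus strand), the alpha-actinin gene that cross-links actin at the Z-disc, had a lowest, median and highest mutant value of 0.246, 0.395 and 0.759 CPM. Wildtype 1 to 3 stood at 0.737, 1.27 and 0.683 CPM. Only mutant 5 reached the wildtype range. Actn2 averaged 0.454 ± 0.194 CPM in mutants (SD, n = 6) and 0.898 ± 0.327 CPM in wildtype (SD, n = 3), a log2 fold change of -0.97 with an interval of -1.96 to 0.02 (edgeR adjusted p = 0.154), which did not pass.

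Ckm (chromosome 7, 19404776 to 19422841), which regenerates ATP in working muscle, had 10 to 22 counts in every library. Its lowest, median and highest mutant values were 0.284, 0.38 and 0.623 CPM, against 0.59, 0.824 and 0.359 CPM in wildtype 1 to 3. The groups overlapped (log2 fold change -0.48, interval -1.50 to 0.54, edgeR adjusted p = 0.522). Of its 2913 exon bases, 451 lie within A930016O22Rik on the other strand.

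Across the 10 genes, 8 passed the filter on low counts and 0 were called by edgeR at an adjusted p under 0.05, where 19.2% of all tested genes were called, 9.7% higher and 9.47% lower in the mutant (3034 genes, against 538 without wildtype 1 and 1669 without wildtype 3). At an unadjusted p under 0.05 the number was also 0. DESeq2 gave an adjusted p for 3 of the 8, Acta1, Myh3 and Mylpf, and called 0 of them (0 of the 8 at an unadjusted p under 0.05). Limma-voom with quality weights called 1 of the 8, Myh3. The groups overlapped for all 8 tested genes, while 22% of all tested genes had groups that did not overlap. Of the genes not tested, Neb overlapped as well, and Tnnc2 was at 0 in every library. The intervals were wide: that of Acta1 ran from 0.29-fold to 5.16-fold and that of Myh3 from 0.969-fold to 2.47-fold, and each of the 8 included a 2-fold change in at least 1 direction.

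The libraries also differed in Gm42418, a gene that overlaps ribosomal RNA sequence, which took 4.11% to 6.91% of counts in mutants 1, 3, 4, 5 and 6 and 4.54% in wildtype 1. It took 0.0673% in mutant 2, and 0.0663% and 0.0708% in wildtype 2 and 3. With this split as a covariate 0 of the 8 genes were called, at a lowest adjusted p of 0.234 for Actn2 (edgeR), and Acta1 had a log2 fold change of -0.48.

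**Figure D4:**
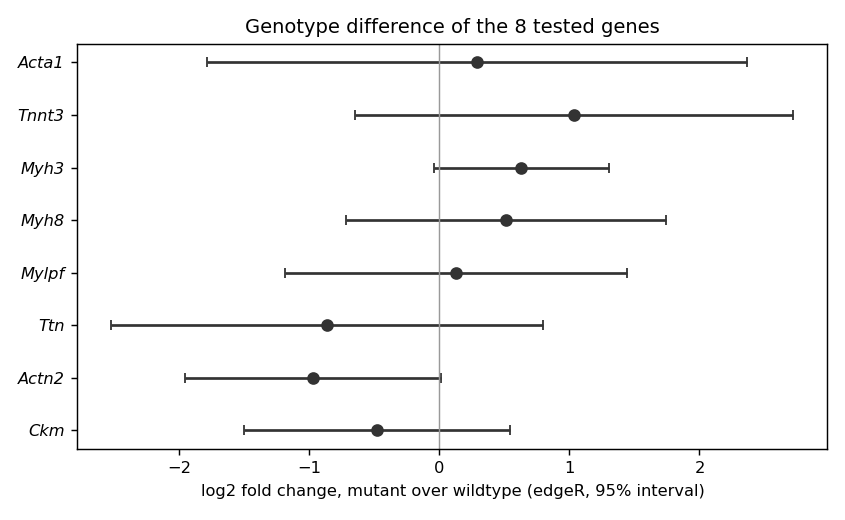
Log2 fold change, mutant over wildtype (horizontal axis), of the 8 tested genes from the edgeR fit, with 95% intervals as bars. All intervals include 0, and those of Acta1, Tnnt3 and Ttn are widest.

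To see whether the genes varied together from library to library, each was set against the summed CPM of the others, on log2(CPM + 0.1), over 9 libraries. Of 9 relations computed, 1 passed Benjamini-Hochberg adjustment. Acta1 had r = 0.87 (exact permutation p = 0.00262, adjusted 0.0235), with rho = 0.70 (exact permutation p = 0.0433, adjusted 0.389). Without mutant 1 and wildtype 2, the libraries farthest from the median, r was 0.49 (exact permutation, adjusted p = 0.867). Leaving them out also cut the number of libraries and the range, so whether the relation depended on them alone was not tested. Within the 6 mutants r was 0.90 (exact permutation, adjusted p = 0.238). The other 8 genes ranged from r = -0.55 for Myh8 to r = 0.55 for Ckm, with adjusted p between 0.337 and 0.986 (exact permutation).

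Pairs of genes were also set against each other within a library. The log2 ratio of Myh8 to Myh3 counts, each plus 1, averaged -2.05 ± 0.787 in mutants (SD, n = 6) and -1.82 ± 1.38 in wildtype (SD, n = 3). Wildtype 3 stood above all mutants at -0.23, while wildtype 1 and 2 stood at -2.58 and -2.65, inside the mutant range. The difference of -0.22 did not pass an exact two-sided permutation test over 84 splits (p = 0.774, adjusted p = 0.821 over 4 ratios). The ratios of Ttn, Neb and Ckm to Acta1 differed by -0.49, 1.09 and -0.28 (exact permutation p = 0.667, 0.429 and 0.821), where the smallest p that 84 splits allow is 0.0119.

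The genes whose profile over 9 libraries was most like the mean log2 CPM of the 10, among 13220 candidates, were E2f2 (r = 0.94), Piga (0.93), Fech (0.92), Tmprss11g (0.92) and Entr1 (0.91), followed by Pqlc3, Spaar, Cstf1, Klhdc8a and Prps1l3. None of these 10 genes is in a muscle list used here. Candidates had to average at least 1 CPM, however, so muscle genes below that level, such as Myh1 and Myh7, could not appear. The list of alike genes is a description of 9 libraries in which mutant 1 is the extreme. Without mutant 1 the values fell to between 0.68 and 0.90.

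Other genes of the skeletal muscle program were mostly at very low levels too. Of 117 such genes in 8 lists, 78 averaged under 1 RPKM and 6 had 0 counts in all libraries: Lmod2, Myoz3, Sln, Chrnd, Myf5 and Trim54. By comparison, 44.7% of all protein-coding genes of the table averaged below 0.907 RPKM, the level of Mylpf. Among the myogenic regulators, Myf5 had 0 counts, Myod1 and Pax7 had 1 count each in mutants and 0 in wildtype, and Myog and Myf6 had at most 7 and 3 counts in any library. Sln, the regulator of the calcium pump, and Chrnd, the delta subunit of the muscle acetylcholine receptor, were at 0. The 39 genes at 1 RPKM or more included Cryab at 130 RPKM, Tpm1 at 54.6 RPKM and Agrn at 52 RPKM, genes of a small heat shock protein, a tropomyosin and the proteoglycan agrin. They also included genes best known from muscle: Rapsn at 25.5 RPKM, the ubiquitin ligase gene Trim63 at 9.07 RPKM, Cav3 at 2.53 RPKM, Musk at 2.35 RPKM, Chrna1 at 2.11 RPKM and the calsequestrin gene Casq1 at 1.91 RPKM.

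Of these 117 genes 75 were tested, and 9 were higher and 4 lower in the mutant, 12% and 5.33% of those tested, where all genes gave 9.7% and 9.47%. Their median log2 fold change was -0.04, against -0.0019 over all tested genes. The other thick filament genes gave 1 of 12 higher, Mybph, with 86 counts in mutants and 3 in wildtype, a ratio of 12.5 with a 95% counting interval of 4.12 to 61.6 (edgeR adjusted p = 0.0115). Of its exon bases 49.9% lie within Adora1 on the other strand, so its reads are uncertain. The other thin filament genes gave 1 of 10 higher, Tnnc1, the slow and cardiac troponin C gene (1.47 ± 0.715 CPM in mutants, n = 6, and 0.498 ± 0.286 CPM in wildtype, n = 3, SD, edgeR adjusted p = 0.0392). They gave 1 lower, Tpm2, the beta tropomyosin gene (73.1 ± 11.8 CPM in mutants, 98.4 ± 1.58 CPM in wildtype, edgeR adjusted p = 0.0196). Z-disc genes gave 1 of 9 higher, Flnc, a filamin gene, 1.37-fold.

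Nerve-muscle synapse genes gave 3 of 7 higher and 1 lower. Agrn stood at 540 ± 43.3 CPM in mutants (SD, n = 6) and 369 ± 46.9 CPM in wildtype (SD, n = 3), 1.46-fold higher (edgeR adjusted p = 0.00235). The agrin receptor genes Lrp4 and Musk were 1.41-fold and 1.46-fold higher (edgeR adjusted p = 0.00931 and 0.0428). Rapsn, which clusters acetylcholine receptors, was lower, at 39.4 ± 5.88 CPM in mutants and 59 ± 5.76 CPM in wildtype (edgeR adjusted p = 0.00428). The receptor subunit genes Chrna1 and Chrnb1, at 8.43 and 10 CPM in mutants and 10.9 and 8.81 CPM in wildtype, did not pass. Among myogenic regulators 3 of 6 tested genes were higher, Mef2d (1.32-fold), Pax3 (1.56-fold) and Eya1 (1.37-fold), all known from other cell lineages too. Energy metabolism genes gave 1 of 10 lower, Eno3 (0.673-fold), and sarcomere assembly genes 1 of 10 lower, Cav3 (0.467-fold), while 0 of 11 calcium handling genes were called (edgeR).

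Leaving out a library ended several of these calls, while the fold changes kept their direction: that of Pax3 ran between 0.57 and 0.69 on the log2 scale, that of Lrp4 between 0.39 and 0.57 and that of Cav3 between -1.40 and -0.89. Over all genes the calls also dropped, as given above. Without wildtype 1, 1 muscle list gene was called higher, Agrn, and 1 lower, Rapsn. Without wildtype 3, 4 were higher, Agrn, Flnc, Lrp4 and Tnnc1, and 1 lower, Rapsn. Tnnc1 also lost its call without wildtype 2 or mutant 1, 3 or 5, Eya1 without wildtype 2 or mutant 6, and Musk without wildtype 2 or any of mutants 2 to 6. DESeq2 gave no adjusted p for Mybph, and limma-voom did not call Tnnc1 (adjusted p = 0.0737). With the Gm42418 split as a covariate 5 genes were called higher, Agrn, Flnc, Lrp4, Mef2d and Mybph, and 3 lower, Cav3, Eno3 and Rapsn.

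Markers of other cell types were read beside the 10 genes. Cardiac markers were as scarce, with a highest mean of 0.748 RPKM, for Hcn4, and 0 of 3 tested genes called (edgeR). Adipocyte markers summed to between 2.53 and 3.22 CPM in mutants and between 2.59 and 3.19 CPM in wildtype, with Adipoq and Lep at 0. Tendon markers were present, and 0 of 8 were higher and 1 lower (edgeR). The lower gene was Tnmd, detected in every library at 21.5 to 33.2 CPM in mutants and 37.7 to 51.3 CPM in wildtype. Without wildtype 1, 0 of the tendon markers were called. Smooth muscle markers summed to between 1450 and 1626 CPM in mutants and between 1806 and 1990 CPM in wildtype, and 5 of 10 were lower, 50% against 9.47% of all genes. Among the lower genes, Tagln has 67.9% of its exon bases within Pcsk7 and Gm48529 on the other strand, so its reads are uncertain. Actg2 stood at 33.5 ± 2.55 CPM in mutants (SD, n = 6) and 62 ± 3.72 CPM in wildtype (SD, n = 3), and Cnn1 at 30.1 ± 3.86 CPM in mutants and 49.9 ± 3.92 CPM in wildtype (edgeR adjusted p = 3.06e-05 and 0.000897). Without wildtype 1, 3 of the 10 smooth muscle genes were called lower, without wildtype 2 or wildtype 3, 2 were, and without mutant 3, 3 were. The log2 fold change of Actg2 ran between -0.93 and -0.84 when each of the 9 libraries was left out in turn, and that of Cnn1 between -0.78 and -0.66. With the Gm42418 split as a covariate 2 were.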

How the data were processed

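Bulk RNA-seq of 9 pooled anterior segment samples was deposited by the authors as whole-number read counts per Ensembl gene, with no normalization. The aligner STAR 2.6.1, the counter HTSeq 0.6.1, the package DESeq2 1.6.3 and the build GRCm38 are named, without their settings, per the submitters' processing notes. The annotation release and the strand setting are not given there. GENCODE M21 gave symbols for 34490 of 35275 identifiers, positions, exon lengths and transcript sequences. The smallest chi-square per degree of freedom between libraries of a group was 15.6, so none looked like another library sequenced again. Each counted as 1 replicate, and whether the pools were related in other ways was not tested.

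Genotype was tested with edgeR 4.0.16 in R 4.3.3, using TMM factors, the default filter by group (a minimum count of 10), robust quasi-likelihood fit on genotype, Benjamini-Hochberg adjustment over 15825 genes. CPM and RPKM use TMM library sizes. Profile likeness used log2 CPM with a prior count of 2. Counting intervals are exact at 95% and cover counting error only. The steps were checked on simulated counts. Alternatives used limma 3.58.1, DESeq2 1.42.0 and mgcv 1.9.3. Genes named were the 10 members, the other myosin heavy chains, up to 4 of lowest p per list and the 10 most alike profiles. Genes at 0, low myogenic regulators, high-level examples, Chrna1, Chrnb1, Tagln and Jsrp1 were named after their values were seen. Members and lists were chosen with earlier results of these data known. Of the lists, Schwann cell (1 of 8 tested genes higher), eyelid skin (0 of 5 called, edgeR), cartilage (2 of 7 lower), retina (0 of 5, edgeR), lens (1 of 7 lower), corneal epithelium (1 of 8 higher, 1 lower), corneal stroma (4 of 8 lower) and pigment cell (0 of 8, edgeR) served as context. Some sequences are not reported here.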

Additional observations from a re-analysis of the deposited data

Results flagged for a closer look

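Within the 6 mutant libraries, mutant 1 stood apart from the others for the summed level of the 10 genes and for 3 of them. The sum was 11.53 CPM in mutant 1 and 3.954 to 5.822 CPM in the other mutants. Acta1 stood at 3.255 CPM in mutant 1 and at 0.1419 to 0.5625 CPM in the others, Mylpf at 2.909 CPM against 0.2533 to 0.9517 CPM, and Ttn at 1.212 CPM against 0.02838 to 0.4343 CPM. The gap to the nearest library, divided by the range, was 0.865 for Acta1, 0.737 for Mylpf, 0.657 for Ttn and 0.753 for the sum, above Dixon's critical value at 95% for 6 samples. Of 35 sets of values checked, 4 were marked, and chance marks about 1 in 20 where values are normally distributed. Values from so few counts need not be, and Tnnc2, at 0 in every library, could not be marked, so that rate is approximate. The sum contains the 3 genes, so the 4 are not independent. Over 73 muscle genes under 1 RPKM in every library, mutant 1 was the highest library for 11, mutant 5 for 12 and wildtype 1 for 13. That limit leaves out genes that pass 1 RPKM in mutant 1, such as Acta1, Mylpf and Jsrp1, at 2.12, 2.74 and 1.25 RPKM there. The tally thus cannot show how mutant 1 stands over muscle genes in general. What gave mutant 1 its higher values was not tested.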

How the results depend on the processing

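The number of the 10 genes called lower was 0 under all 18 alternatives (edgeR, DESeq2 and limma), and the number called higher was 0 under 17 and 1 with limma-voom, Myh3. Only 2 of the genes, Ckm and Myh3, were tested with at least 10 counts asked of all 9 libraries, and 3 had an adjusted p from DESeq2. At an unadjusted p under 0.05, DESeq2 gave 0 and limma-voom 2. Over all genes 3034 were called, against 4694 with limma-voom, 1485 with the replicate block, 1878 with the split on Gm42418 as covariate, 2158 with the exon length trend removed, and 538 to 3265 leaving out libraries. Other muscle list genes called higher numbered 9, against 11 with DESeq2, 12 with limma-voom, 5 with the replicate block, 5 with the Gm42418 split and 1 to 10 leaving out libraries; those called lower numbered 4, against 8 with limma-voom, 2 with the replicate block, 6 with DESeq2 and 1 to 5 leaving out libraries. Same-numbered libraries correlated at 0.095, 0.026 and -0.10 in their deviations, and differently numbered ones at -0.16 to 0.19. The numbers thus gave no sign of pairing, which so few pairs cannot exclude.

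Directions turned for Acta1 (log2 -0.48 with the Gm42418 split, -0.24 without wildtype 3, -1.20 without mutant 1), Mylpf (-0.23 with limma-voom, -0.015 with the Gm42418 split, -0.00884 without wildtype 2, -0.55 without mutant 1), Ttn (0.56 without wildtype 2) and Ryr2 (0.69 without wildtype 3). They also turned with exon length removed for Nebl (-0.036), Cryab (0.049) and Mef2a (-0.018). None of these genes was called in the reported fit or in a fit that turned its direction. Limma-voom, however, called Nebl and Mef2a higher and Cryab lower. DESeq2 and the fit without mutant 1 also called Mef2a higher. Leaving out libraries moved Acta1 between -1.20 and 0.85, Mylpf between -0.55 and 0.40, Ttn between -1.51 and 0.56 and Ryr2 between -0.72 and 0.69. It moved the ratio differences (log2) of Myh8 to Myh3 between -0.64 and 0.57, of Ttn to Acta1 between -1.81 and 0.53, of Neb to Acta1 between 0.14 and 2.37 and of Ckm to Acta1 between -0.67 and 0.45. Without the 2 libraries farthest from the median, the correlation of Acta1 was 0.486, and that of Actn2 (0.233), Mylpf (-0.0853) and Neb (-0.367) changed sign. Other causes than fewer samples were not tested. With no filter on low counts Neb was tested too (adjusted p = 0.554, edgeR), and Tnnc2, at 0, was not.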
